A study of Homo sapiens with 7 samples.

Results

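The 5171 transcript clusters described here were those of 22011 on a human exon array that carried no gene symbol. A transcript cluster is a group of probes that the array reports as a single value. The clusters were chosen by their label alone: a row of the deposited value table counted as a member when its ID had an empty symbol in the platform's table of probe genes or was absent from that table. In these data all 5171 were absent and 0 were listed with an empty symbol, so they are unnamed here, which does not mean that they hold no gene. Of the other clusters, 14432 had 1 symbol and 2408 had several.

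The arrays compared parental DU145 cells (3 arrays) with CSC (4 arrays). DU145 is an androgen-independent human prostate carcinoma line from a brain metastasis, grown in medium with fetal bovine serum. CSC are the CD44+CD24- cells sorted from that line, grown, by the study's methods, as floating spheroids in serum-free medium with EGF, bFGF and insulin. The groups therefore differed in serum, added factors and attachment as well as in the sort, and these cannot be told apart. Both come from a single line, and separate cultures are stated nowhere for the arrays of a group, so the p-values rest on a spread between RNA samples that may be technical. The study's methods state fewer CSC replicates than the labels hold, and all 4 labelled CSC arrays were kept. RNA came from bulk cells, in which fewer cells of a type and less RNA per cell cannot be told apart.

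The sort markers and the labelled cell type were checked on named clusters. CD44, the hyaluronan receptor used for the sort, had a mean log2 value of 8.93 in DU145 and 7.75 in CSC (adjusted p = 0.128 in limma's moderated test). CD24, the surface glycoprotein selected against, had 8.93 and 8.54 (adjusted p = 0.449). The epithelial keratins KRT8 and KRT18 were bright in both groups, KRT8 at 9.72 and 10.32 and KRT18 at 8.39 and 8.41. EPCAM and CDH1, which encode epithelial adhesion proteins, were higher in CSC by 1.92 and 3.32 on the log2 scale (adjusted p = 0.00209 and 0.00285). No marker on the fibroblast, endothelial or leukocyte lists passed the test, with adjusted p-values of 0.227 or more. PTPRC, the pan-leukocyte marker, was the dimmest of them at 2.20 and 2.27. COL1A1, a fibroblast marker, was the brightest at 5.88 and 6.06. The part of these differences in the results on the unnamed clusters was not tested.

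An exon array reads RNA along the whole transcript, so besides the clusters of annotated genes it carries clusters built on predicted exons, on expressed tags and on stretches that no annotation covers. By its design it also carries control clusters, among them single probe sets placed on exons and on introns of genes that most cells use. Probes in an intron read unspliced RNA, which is usually scarcer than mature message. The tables used here give no class, sequence or position for any of the 5171 unnamed clusters, so which kind each belongs to is not stated, and a cluster is described below only by the nearest cluster with 1 symbol before and after it in the order of the array's IDs, even where a listed cluster with several symbols lies between. The IDs are grouped by chromosome: of 14383 consecutive pairs of clusters with 1 symbol, 14264 (99.2%) had both genes on the same chromosome in the RefSeq gene table. Order and distance within a chromosome were not tested, so a neighbour in ID order is a label, not a location.

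The unnamed clusters were not scattered evenly through the ID order. Most of them, 3938 of the 5171 (76.2%), lay in 76 runs of at least 10 clusters with no listed cluster between them. A run had 10 to 232 members with a median of 39.5, and the longest lay between ASB13, an ankyrin repeat and SOCS box protein, and ANKRD16 as the nearest clusters with 1 symbol, with a cluster listed under GDI2 and TASOR2 directly before it. In 23 runs the listed cluster directly beside the run on at least 1 side carried several symbols. Another 386 unnamed clusters formed shorter groups and 847 stood alone between listed clusters. The limits that define a run were chosen after the values had been seen, so runs are described here and not tested. IDs also stepped differently: 3367 unnamed clusters (65.1%) had an ID exactly 2 away from the nearest row of the table, against 32 listed clusters (0.19%). In all 76 runs the nearest clusters with 1 symbol on the 2 sides were on the same chromosome.

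Values are log2 brightness after the authors' normalization. They are not amounts of RNA, and the levels of different clusters cannot be set against each other, because clusters differ in the number and binding strength of their probes. The members were therefore sorted into quartiles by their mean over all 7 arrays, which orders them by brightness only. The dimmest quartile (1293 clusters) spanned means of 0.87 to 3.45, the second (1293) 3.46 to 5.47, the third (1292) 5.47 to 8.03 and the brightest (1293) 8.03 to 13.56. Clusters of olfactory receptor genes, which are mostly silent outside the nose, give a scale for dim values: of 225 such clusters with 1 symbol, 123 lay within the limits of the dimmest quartile, 100 within the second, 2 within the third and 0 within the brightest.

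Across all members the array medians were lower in CSC than in DU145. They were 5.63, 5.73 and 5.80 in DU145 and 5.32, 5.41, 5.38 and 5.52 in CSC, with no overlap between the groups. Clusters with 1 symbol had medians of 5.81, 5.83 and 5.92 in DU145 and 5.98, 5.98, 6.01 and 5.99 in CSC, also without overlap but in the opposite direction, a shift that centring the arrays on these clusters removes by definition. The order of the unnamed clusters held in the 3 lower quartiles. In the dimmest quartile the medians were 2.27, 2.30 and 2.52 in DU145 against 2.09, 2.18, 2.16 and 2.21 in CSC. In the second they were 4.67, 4.74 and 4.83 against 4.29, 4.38, 4.33 and 4.49, the widest gap of the 4 quartiles. In the third they were 6.68, 6.88 and 6.85 against 6.53, 6.53, 6.50 and 6.62. In the brightest quartile they were 9.88, 10.17 and 10.09 against 9.95, 9.92, 9.95 and 9.93, where DU145 replicate 1 lay below all 4 CSC arrays and the groups overlapped.

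**Figure D1:**
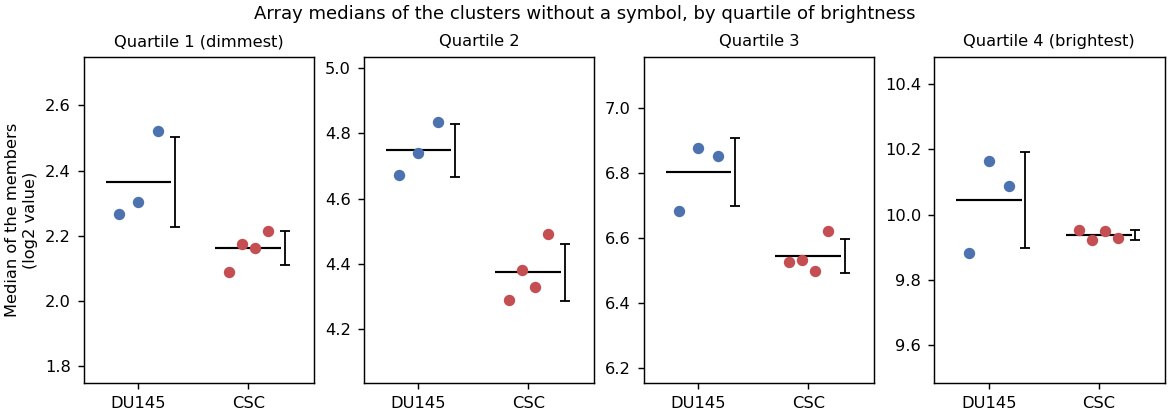
Median log2 value of the unnamed clusters of each brightness quartile on each array (points), with the group mean (line) and SD (bar) over 3 DU145 and 4 CSC arrays; every vertical axis spans 1 log2 unit. The groups are apart in the 3 lower quartiles, with CSC at 2.09 to 2.21 against DU145 at 2.27 to 2.52 in the dimmest, and overlap in the brightest.

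The unnamed clusters were also noisier than the named ones. Their median SD within a group was 0.32 among DU145 arrays and 0.36 among CSC arrays, against 0.15 and 0.16 for clusters with 1 symbol. The spread narrowed with brightness, from 0.48 and 0.57 in the dimmest quartile to 0.23 and 0.18 in the brightest. Named clusters between the limits of the dimmest quartile had a median SD among DU145 arrays of 0.11 and those of the brightest 0.19, so the excess was largest at the dim end. In 578 unnamed clusters (11.2%) at least 2 arrays shared a value exactly, against 7679 clusters with 1 symbol (53.2%). Over the unnamed clusters, arrays of the same group correlated at 0.968 to 0.977 in DU145 and 0.957 to 0.962 in CSC, and arrays of different groups at 0.940 to 0.962, so the ranges within CSC and between groups overlapped. The first principal component of their values held 37.1% of the variance and placed all DU145 arrays below 0 (-22.7, -27.4 and -36.1) and all CSC arrays above it (31.3, 19.6, 30.3 and 5.01), with CSC replicate 4 nearest to DU145. The second held 15.3% and set CSC replicate 2 (33.4) against CSC replicate 3 (-28.7).

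In the comparison of CSC with DU145, 60 unnamed clusters fell and 7 rose. A cluster is called here when limma's Benjamini-Hochberg adjusted p over all 22011 clusters was at most 0.05 and its log2 fold change was at least 1 in size. Over the whole array 1.3% of clusters passed these limits: 0.722% of the array higher in CSC and 0.577% lower. Of the unnamed clusters 1.3% were called as well, so their share was that of the whole array, but 0.135% were higher and 1.16% lower. Clusters with 1 symbol split the other way, with 143 higher (0.991%) and 62 lower (0.43%), and those with several symbols gave 9 higher and 5 lower. The unnamed clusters, 23.5% of the array, thus held 60 of its 127 lower calls and 7 of its 159 higher calls. The difference between unnamed and named clusters was not tested, since clusters of a run are not independent.

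The number of calls depended on which arrays entered the fit. Without DU145 replicate 1, 2 or 3, the lower calls were 6, 7 and 13 and the higher calls 1, 2 and 6. Without CSC replicate 1, 2, 3 or 4, the lower calls were 45, 20, 28 and 65 and the higher calls 8, 3, 7 and 8. Among the unnamed clusters lower calls outnumbered higher ones in each of these fits. Over the whole array the lower calls were 25, 26 and 39 without DU145 replicate 1, 2 or 3, and the higher calls 31, 33 and 90. Without a DU145 array the unnamed clusters thus held a smaller part of the lower calls than their 60 of 127 with all arrays. Without DU145 replicate 1 that part was near their 23.5% of the array. Without CSC replicate 1, 2, 3 or 4 the array's lower calls were 94, 40, 58 and 117. Of the 60 lower calls, 4 were called in all 7 fits without an array and 12 in none, and of the 7 higher calls, 1 in all and 1 in none. Leaving out a DU145 array leaves only 2 in that group.

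Below the level of calls the same direction held over many clusters. The median log2 fold change of the unnamed clusters was -0.10, with quartiles of -0.52 and 0.17, against 0.08 over all clusters and 0.10 for those with 1 symbol, which turned to -0.06 and -0.04 with arrays centred on the clusters with 1 symbol while that of the unnamed clusters went to -0.23. Their mean was lower in CSC in 3068 (59.3%), against 35.2% of all clusters and 27.5% of those with 1 symbol. A mean at least 2-fold lower in CSC was seen in 632 (12.2%) and one at least 2-fold higher in 55 (1.06%), while for clusters with 1 symbol the shares were 0.873% and 2.3%. The arrays of the groups did not overlap, with all CSC arrays lower, in 719 unnamed clusters (13.9%), where the share over the whole array was 6.13%. They did not overlap with all CSC arrays higher in 254 (4.91%), where the share over the whole array was 10.8%.

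By quartile, lower calls were most frequent in the third and rarest in the dimmest. They numbered 9 (0.696%), 15 (1.16%), 26 (2.01%) and 10 (0.773%) from the dimmest to the brightest, beside 0.577% over the whole array. Higher calls numbered 1, 2, 4 and 0, and at an unadjusted p of at most 0.05 the brightest quartile held 344 clusters in either direction with no fold limit. Clusters with 1 symbol between the same limits were lower in 0.0673%, 0.458%, 0.502% and 0.404%. The 10 calls of the brightest quartile included 7 from a single run, described below, and 3 were called without it. They became 0, 0 and 2 without DU145 replicate 1, 2 or 3, and 6 without CSC replicate 2.

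The size of the change followed another order than the calls. The median log2 fold change of the quartiles was -0.07, -0.24, -0.11 and -0.06, against 0.09, 0.08, 0.12 and 0.11 for clusters with 1 symbol between the same limits, which turn below 0 when the arrays are centred on these clusters. A mean at least 2-fold lower in CSC was found in 149 (11.5%), 277 (21.4%), 180 (13.9%) and 26 (2.01%). Groups that did not overlap, with CSC lower, were counted in 101 (7.81%), 176 (13.6%), 220 (17%) and 222 (17.2%), beside 6.13% over the whole array. Fold changes were thus widest in the second quartile, while the arrays separated most often in the upper 2, where the spread within groups was smaller.

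The lower calls came almost all from the runs. Of the 3938 clusters in runs 55 fell (1.4%) and 3 rose, beside 0.577% and 0.722% over the whole array, and 33 fell (0.876%) without the run between OR5AU1 and SUPT16H described below. The median log2 fold change of the clusters in runs was -0.19, and 66.1% had a lower mean in CSC. Of the 847 clusters alone between listed ones 3 fell and 3 rose (0.354% each), the mean was lower in CSC in 37.1%, and the median was 0.08, or -0.06 with arrays centred on the clusters with 1 symbol. Of the 386 in shorter groups 2 fell and 1 rose, and 38.9% had a lower mean in CSC. All CSC arrays lay below all DU145 arrays in 16.4% of the clusters in runs and 5.9% of those alone, and above them in 3.35% and 10.6%. The shares of the clusters that stood alone were thus near those of the whole array, unnamed clusters included (6.13% and 10.8%), and those of the clusters in runs were not. Among clusters with 1 symbol these shares were 3.83% and 12.7%. The 55 lower calls in runs became 5, 6 and 12 without DU145 replicate 1, 2 or 3, where the whole array held 25, 26 and 39. The runs thus held a smaller part of the array's lower calls there than their 55 of 127 with all arrays. Without CSC replicate 2 or 3 the runs held 17 and 25, of 40 and 58 over the array. The 3 lower calls among clusters that stood alone became 0 without any of the DU145 arrays and 1 without CSC replicate 1 or 3. The clusters in runs were also noisier, with a median SD of 0.37 and 0.43 among DU145 and CSC arrays against 0.19 and 0.20 for those alone.

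**Figure D2:**
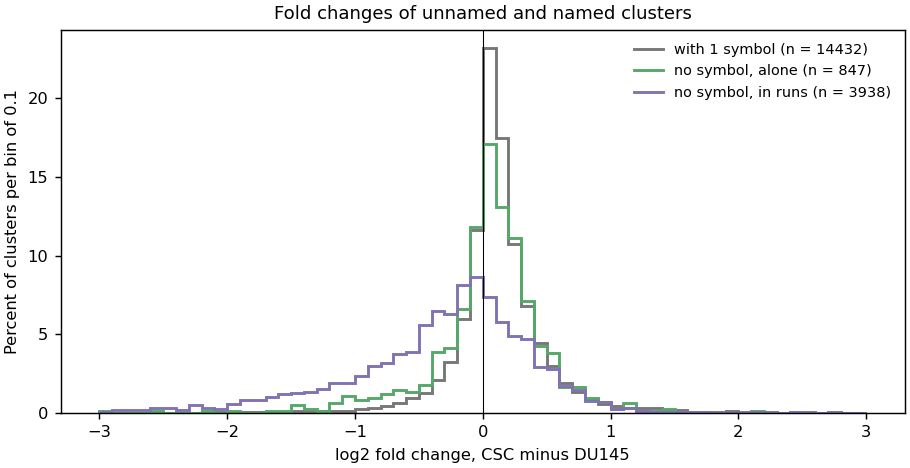
Share of clusters, in percent, in each bin of 0.1 of the log2 fold change (CSC minus DU145), for clusters with 1 symbol, unnamed clusters alone between listed clusters and unnamed clusters in runs; values beyond 3 in size are not drawn. The clusters in runs spread to the left of 0, with a median of -0.19. Those alone and those with 1 symbol had medians of 0.08 and 0.10, or -0.06 and -0.04 with arrays centred on the clusters with 1 symbol. A mean at least 2-fold lower in CSC was seen in 3.19% and 0.873% of them, and one at least 2-fold higher in 1.53% and 2.3%.

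Runs were mixed in brightness, and both the brightness and the fold change of their members were partly shared. Of the 76 runs 65 held clusters of all 4 quartiles. Differences between runs made up 14.9% of the variance of the row mean and 15.7% of the variance of the log2 fold change among clusters in runs. Neighbours within a run (3862 pairs) correlated at 0.39 in their log2 fold change and at 0.48 in their row mean. Clusters standing alone correlated at 0.09 in their fold change with the cluster of 1 symbol just before them (735 pairs). These correlations run across clusters measured on the same 7 arrays and are descriptions.

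The median log2 fold change was below 0 in 62 of the 76 runs, and 22 runs held a call, 19 of them a lower one. The run between OR5AU1, an olfactory receptor, and SUPT16H, a subunit of the FACT histone chaperone, stood apart, with 22 of its 170 members called, all lower (12.9%), and a median of -1.18. The medians of the other runs ranged from -0.79 to 0.36, with at most 3 calls in a run. Without this run, 38 of 5001 unnamed clusters fell (0.76%), beside 0.577% over the whole array, and the median of the unnamed clusters was -0.09.

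**Figure D3:**
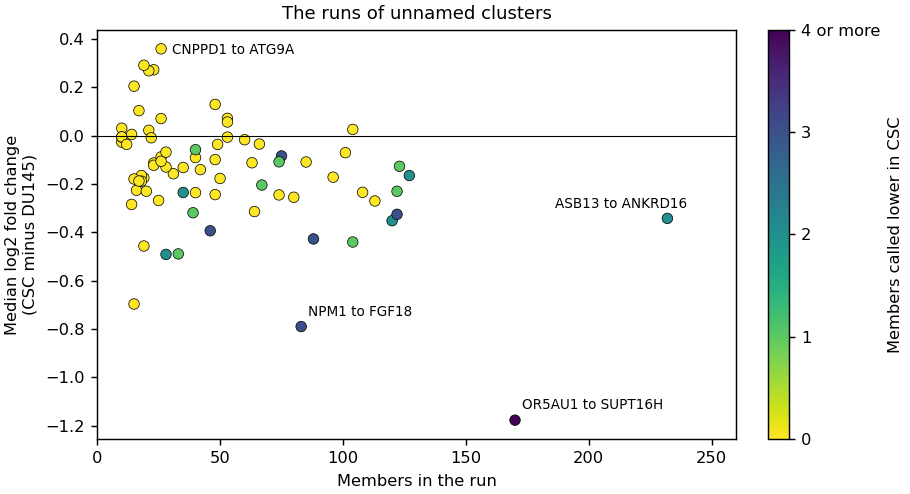
Median log2 fold change (CSC minus DU145) of each of the 76 runs against its number of members, coloured by the number of members called lower in CSC, with 4 runs labelled by the nearest clusters with 1 symbol on either side. Most runs lie below 0, and the run between OR5AU1 and SUPT16H lies lowest at -1.18.

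In the run between OR5AU1 and SUPT16H the array medians were 6.67, 7.03 and 6.88 in DU145 and 4.86, 5.51, 4.82 and 5.69 in CSC. All CSC arrays lay below all DU145 arrays, with CSC replicates 1 and 3 lowest. The mean was lower in CSC in 93.5% of its members, the arrays did not overlap with CSC lower in 92 of the 170 (54.1%), beside 6.13% over the whole array, and 0 had all CSC arrays higher, beside 10.8%. The 2 named clusters that flank it were not called: OR5AU1 had a log2 fold change of 0.00 (SE 0.37) and SUPT16H of 0.06 (SE 0.07), with adjusted p-values of 1 and 0.677. The count of calls moved with the arrays used: it was 2, 3 and 7 without DU145 replicate 1, 2 or 3, and 17, 8, 10 and 20 without CSC replicate 1, 2, 3 or 4. The median of the run stayed between -1.27 and -1.03 in these fits.

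By quartile, the median change in this run was smallest in size in its brightest members. Many of these stood among the first 17 of the run, which changed little and are described below. Brightness and place in the run were thus not told apart here. By quartile of brightness its 33, 43, 54 and 40 members had median log2 fold changes of -0.86, -1.42, -1.52 and -0.47, and 1, 4, 10 and 7 of them fell. In the third quartile the array medians were 7.35, 7.63 and 7.46 in DU145 and 5.95, 6.09, 5.83 and 6.29 in CSC, more than 1 log2 unit apart at their nearest. In the brightest quartile they were 10.04, 10.44 and 9.95 against 9.78, 9.52, 9.43 and 9.64, still without overlap.

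Values also differed along the run. Its first 17 members in ID order, a stretch chosen after the values had been seen, were nearly all bright, with a median row mean of 10.85. Limma called 0 of them, and 5 had an unadjusted p of at most 0.05 whatever the fold, beside 4335 of 22011 over the whole array. The log2 fold changes of these 17 lay between -0.77 and 0.12 with a median of -0.31. Their array medians were 10.77, 11.24 and 11.11 in DU145 and 10.80, 10.58, 10.41 and 10.89 in CSC, so the groups overlapped. The 153 later members had a median row mean of 5.56 and a median fold change of -1.33, and held all 22 calls.

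**Figure D4:**
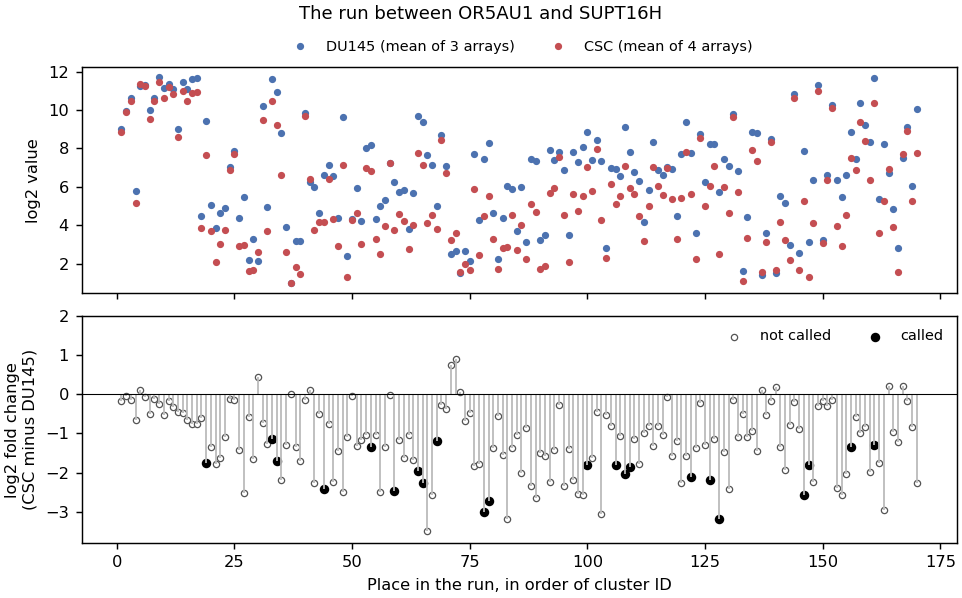
The 170 members of the run between OR5AU1 and SUPT16H in order of cluster ID. The upper panel gives the mean log2 value in DU145 (3 arrays) and CSC (4 arrays), and the lower panel the log2 fold change (CSC minus DU145), with called clusters filled; the first 17 members are bright and change by -0.77 to 0.12, and the 22 calls lie among the later 153.

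Several other runs had low medians with at most 3 calls each, and they are named here because of those values. The 83 clusters between NPM1, an abundant nucleolar protein, and FGF18, a secreted growth factor, had a median log2 fold change of -0.79. The mean was lower in CSC in 88.0% of them, and 3 were called lower (3.61%, beside 0.577% over the whole array). All CSC arrays were lower in 35 of them (42.2%, beside 6.13%). Their array medians were 7.66, 7.87 and 7.90 in DU145 and 6.40, 6.82, 6.56 and 7.27 in CSC, without overlap. NPM1 itself had a fold change of 0.08 and FGF18 of 0.10, with adjusted p-values of 0.922 and 0.533. The 28 clusters directly before LTB, the lymphotoxin beta gene, had a median of -0.49 and 2 lower calls (7.14%, beside 0.577%). A cluster listed under DDX39B and other genes lay directly before them, and CCHCR1 was the nearest cluster of 1 symbol on that side. LTB itself rose by 1.06 (adjusted p = 0.0432 in limma). In this run the DU145 medians of 6.88, 7.46 and 7.36 overlapped the CSC medians of 7.03, 7.12, 5.95 and 6.56. The 15 clusters between RPL11, a ribosomal protein gene, and ELOA, an elongation factor subunit, had a median of -0.70. Limma called 0 of them, and 7 had an unadjusted p of at most 0.05 whatever the fold, beside 4335 of 22011 over the whole array. The longest run, the 232 clusters between ASB13 and ANKRD16, had a median of -0.34. It held 2 lower calls (0.862%, beside 0.577% over the whole array) and 55 clusters in which all CSC arrays were lower (23.7%, beside 6.13%).

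Runs with medians above 0 were fewer, and some were long, such as the 104 clusters between SNX3 and SESN1 (median 0.03). The 26 clusters between CNPPD1 and ATG9A, an autophagy protein, had the highest median, 0.36, with 0 calls by limma. In 7 of them the unadjusted p was at most 0.05 whatever the fold, beside 4335 of 22011 over the whole array. The array medians of these 26 clusters, 4.69, 5.33 and 5.55 in DU145, overlapped those of 5.48, 5.56, 5.93 and 5.30 in CSC. The 23 clusters between GUK1, guanylate kinase, and H2BC26, a histone gene, had a median of 0.27 and 1 higher call (4.35%, beside 0.722% over the whole array).

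The 60 lower calls spanned log2 fold changes of -1.01 to -3.20 with a median of -1.82. Brightness was at least 4-fold lower in 24 and at least 8-fold lower in 4. Over the 60, the array medians were 6.98, 7.24 and 7.09 in DU145 and 4.98, 4.90, 4.80 and 5.28 in CSC. CSC replicate 4 was the highest CSC array in 23 of them, against 12 or 13 for each of the other CSC arrays. The 7 higher calls spanned 1.14 to 5.04 with a median of 2.15, and their array medians were 4.57, 4.71 and 5.04 in DU145 and 7.52, 8.37, 8.42 and 7.83 in CSC. In all 67 calls the groups did not overlap. The nearest cluster with 1 symbol was itself called beside 4 of the lower calls and 0 of the higher calls by limma.

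The 4 clusters printed by ID below were chosen by the measured log2 difference. In each of them the dimmer group's mean lay within the limits of the dimmest quartile, where 123 of the 225 olfactory receptor clusters lay. No detection call is given in the files used here, so these differences are of brightness, are not folds of RNA, and their order is only that of the measured values.

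The largest measured increase among calls was in cluster 4024373, which stood alone. Its nearest clusters of 1 symbol were SOX3, a transcription factor of the SRY family, and SLITRK4, a neuronal membrane protein. Its log2 values were 3.27, 2.14 and 3.77 in DU145 and 7.52, 8.37, 8.65 and 7.83 in CSC. Every CSC array lay far above every DU145 array, and 2 of the 3 DU145 values lay within the limits of the dimmest quartile. The means of 3.06 ± 0.84 (SD, n = 3) and 8.09 ± 0.51 (SD, n = 4) differed by 5.04 on the log2 scale (SE 0.45), with an adjusted p of 0.00889 in limma. SOX3 and SLITRK4 differed by 0.16 and -0.19 (adjusted p = 0.498 and 0.654). The call was lost without DU145 replicate 1 and in the methods' t-test after adjustment, and the adjusted p ranged from 0.000581 to 0.0585 over the alternatives.

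Cluster 2373336 had the next largest measured increase among calls. It belonged to a short group of unnamed clusters between CDC73, a subunit of the Paf1 transcription elongation complex, and CRB1, a cell polarity protein of the retina. Its values were 2.84, 2.71 and 2.77 in DU145 and 4.77, 5.31, 5.48 and 6.75 in CSC. The DU145 arrays were almost equal and the CSC arrays spread over about 2 log2 units, with CSC replicate 4 highest. The difference was 2.81 (SE 0.44, adjusted p = 0.0383 in limma). It was called in 2 of the 7 fits without an array, and its adjusted p ranged from 0.0165 to 0.135. CDC73 and CRB1 differed by 0.07 and 0.13.

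The largest measured decrease among calls was in cluster 3556238, a later member of the run between OR5AU1 and SUPT16H. Its values were 5.86, 5.75 and 5.56 in DU145 and 1.86, 2.19, 2.59 and 3.45 in CSC. All CSC arrays lay within the range of the dimmest quartile or at its upper limit, at least 2 log2 units below DU145. The difference was -3.20 (SE 0.37, adjusted p = 0.0188 in limma). It was called in 2 of the 7 fits without an array, with adjusted p-values of 0.00688 to 0.085 over the alternatives.

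Cluster 3429669 had the next largest measured decrease among calls. It lay in a short group between CHST11, a chondroitin sulfotransferase, and WASHC4, a subunit of the WASH complex that acts on endosomes. Its values were 5.88, 6.25 and 6.44 in DU145 and 3.30, 2.998, 2.90 and 3.27 in CSC. Both groups were tight, with means of 6.19 ± 0.28 (SD, n = 3) and 3.12 ± 0.20 (SD, n = 4). The difference was -3.07 (SE 0.17, adjusted p = 0.00143 in limma), it was called in all 7 fits without an array, and its adjusted p was 0.0175 or less under every alternative run. CHST11 and WASHC4 differed by -0.31 and -0.21 (adjusted p = 0.45 and 0.3).

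**Figure D5:**
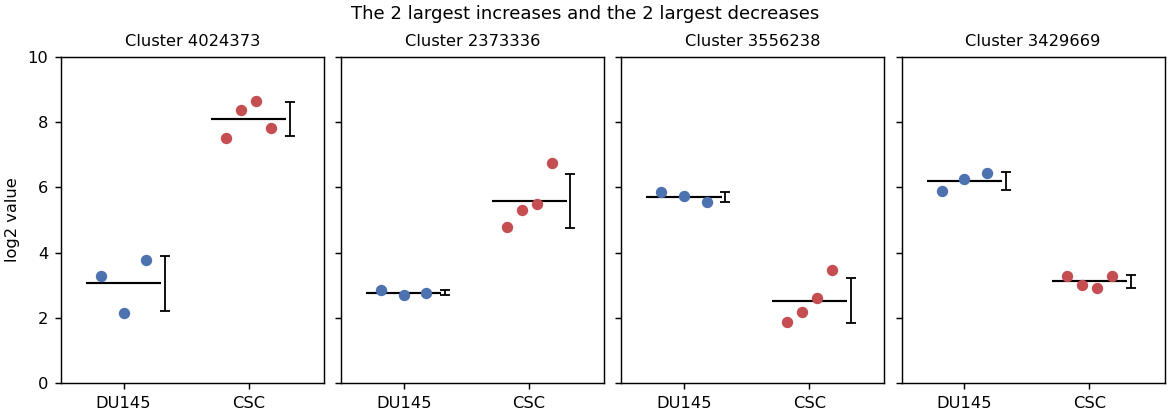
Log2 value on each array (points) of called unnamed clusters, the 2 with the largest increase among calls and the 2 with the largest decrease. Lines give the group mean and bars the SD over 3 DU145 and 4 CSC arrays. In each panel the groups do not overlap, and the widest gap is in cluster 4024373, with DU145 at 2.14 to 3.77 and CSC at 7.52 to 8.65.

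A few further calls are located by their neighbours, chosen after their values had been seen. The third largest increase among calls stood alone between RAB3IL1, an exchange factor for a small GTPase, and SCGB1D4, a secretoglobin. Its mean was 6.57 ± 0.18 (SD, n = 3) in DU145 and 8.76 ± 0.29 (SD, n = 4) in CSC, a difference of 2.19 (SE 0.18, adjusted p = 0.00595), and it was the only higher call made in all 7 fits without an array. Another increase, of 1.49, stood alone between KIT, a receptor tyrosine kinase, and TMEM165. Among the decreases that stood alone, the largest had FAM217A and RPP40, a subunit of ribonuclease P, as its nearest clusters of 1 symbol, at 8.84 ± 0.05 (SD, n = 3) in DU145 and 5.89 ± 0.77 (SD, n = 4) in CSC. Another fell by 2.51 between TRIO, a guanine nucleotide exchange factor, and OTULINL. TRIO itself was lower by a log2 fold change of -0.59 (adjusted p = 0.0392), within the limit of 1.

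Most calls within runs had nearest clusters of 1 symbol that were not called. In the run between SART3, a spliceosome recycling factor, and TMEM119, a cluster fell by 2.75, from 7.60 ± 0.28 (SD, n = 3) in DU145 to 4.85 ± 0.24 (SD, n = 4) in CSC (adjusted p = 0.00264), in all 7 fits without an array. SART3 had a fold change of 0.25 and TMEM119 of 0.15, with adjusted p-values of 0.427 and 0.37. In 2 places a lower call and a named neighbour were called in the same direction. A cluster standing alone next to CLDN11, a tight junction claudin, fell by 1.01, and CLDN11 itself fell by 1.37. A cluster of the run between NARS1, a transfer RNA synthetase, and ATP8B1, a phospholipid flippase, also fell, and ATP8B1 itself fell by 2.27. That cluster lay 43 rows from ATP8B1 and 32 rows from NARS1, which differed by 0.20 (adjusted p = 0.294 in limma). The 2 lower calls in the run directly before LTB went the other way from LTB, which rose by 1.06.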

How the data were processed

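The authors hybridized RNA of DU145 and CSC to human exon arrays and deposited log2 values per transcript cluster, background-corrected, quantile-normalized and summarized at gene level by RMA in oneChannelGUI, 1 table for all 7 arrays. Depth does not apply to arrays, and the number of arrays limits the precision. Quantile normalization brings the arrays towards a common distribution, which can turn a shift of many clusters into an opposite shift of the others.

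Values were used as deposited. Groups came from the labels. A linear model was fitted to all 22011 clusters in limma 3.58.1 (R 4.3.3) with moderated variances and Benjamini-Hochberg adjustment, after a check on simulated data, and a call needed an adjusted p of at most 0.05 and a log2 fold change of at least 1 in size, the limits of the study's methods. The members, lists and rules were chosen with earlier results of these data known. Clusters were printed by ID for the 2 largest increases and 2 largest decreases among calls whose groups did not overlap. Runs needed at least 10 members with successive IDs at most 100 apart. Names came from the platform table, with symbols updated through RefSeq (GRCh38.p14). Alternatives covered thresholds, a filter on dim clusters, scaling, array weights, moderation, an unpaired t-test, a block for the replicate number and leaving out each array. The study's methods name that t-test in their general statistics and moderated linear models for the arrays. The labels state no pairing of the arrays. Same-numbered arrays correlated at 0.07, -0.01 and 0.05 in their deviations from group means, too few values to show whether arrays were paired.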

Additional observations from a re-analysis of the deposited data

How the results depend on the processing

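The median log2 fold change of the unnamed clusters was below 0 in every setting run, from -0.14 to -0.08 without 1 array and -0.23 with arrays centred on the clusters with 1 symbol, a scaling added after seeing the data that moved the median of all clusters from 0.08 to -0.06. The 60 lower and 7 higher calls became 421 and 38 at an unadjusted p of at most 0.05, and 115 and 15 with array weights. By an unpaired t-test they were 320 and 29 unadjusted, and 5 and 1 after adjustment. In limma without a fold limit they were 86 and 19, and among clusters above the median mean 88 and 12. Lower calls rose to 122 with arrays centred on the median of all clusters, 123 after further quantile normalization and 155 with centring on the clusters with 1 symbol, and fell to 38 without the run between OR5AU1 and SUPT16H. Leaving out 1 array gave 6 to 65 lower and 1 to 8 higher calls. The 10 calls in the brightest quartile were 28 at an unadjusted p with the fold limit kept, 38 without a fold limit, 6 at a log2 fold limit of 1.5, 23 above the median mean, 16 after quantile normalization, 26 and 0 by the t-test before and after adjustment, 22 with centring on the clusters with 1 symbol, 19 with quartile limits over all clusters, 3 without the run and 0 to 13 without 1 array. The causes were not tested.

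With the replicate number as a block, 83 lower and 8 higher calls were made (154 and 195 over all clusters). Of those among the unnamed clusters, 11 lay in the brightest quartile. Whether the numbers pair the arrays is not known, and the block kept all 67 calls. The 4 clusters printed by ID kept their direction throughout. The arrays' small number limits the calls, and no detection call was used.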
